A study of Mus musculus with 24 samples.

Results

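The effect of a mutant myelin protein on mouse peripheral nerve at the start of myelination was read from 4 of the 24 Affymetrix arrays of the series: the 2 arrays labelled S63del sciatic nerve at postnatal day 5 (P5) against the 2 labelled WT at the same age, over every gene that the arrays name. S63del mice carry a mutant myelin protein, and WT mice are wild type; neither group lacks Chop. The model is of Charcot-Marie-Tooth 1B neuropathy, and how the allele was introduced is not described in the sources used here. The series also holds Chop null mice, which lack the stress factor CHOP, and S63del/Chop null mice, which carry the mutant protein and lack CHOP. All 4 genotypes were sampled at P5, P28 and 4 months, with 2 arrays a group labelled as biological replicates. The labels do not say how many nerves made up a sample or whether sexes were matched, so the p-values measure the spread between these arrays. Nerves were stripped of the perineurial sheath, snap-frozen and pulverised before RNA extraction. The design text gives P5 as the age at which myelination has just begun, so that primary effects of the mutant protein should be seen.

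Schwann cells wrap axons of peripheral nerve and, at this age, make very large amounts of myelin proteins, cholesterol and sphingolipids. The S63del protein is retained in the endoplasmic reticulum (ER), where misfolded proteins start the unfolded protein response (UPR), a set of pathways run by the sensors IRE1, PERK and ATF6. PERK slows translation and favours the transcription factor ATF4, which drives amino acid genes and CHOP, encoded by Ddit3; ATF6 and the IRE1 product XBP1 drive ER chaperones and the removal of misfolded proteins. Misfolded protein in the cytosol is instead answered by heat shock proteins, under heat shock factors.

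Values are log2 expression as deposited, and a difference of 1 is a 2-fold change. Differences are S63del minus WT ± SE from a limma fit over all 24 arrays, 2 arrays against 2, and a gene is said to have risen or fallen at a Benjamini-Hochberg adjusted p under 0.05 over 12393 genes. Of these, 298 changed, a share of 2.40%, with 142 higher (1.15%) and 156 lower (1.26%). The median difference over all genes was -0.02, and the median size of a difference was 0.12 over all genes and 0.83 over the 298. At an unadjusted p under 0.05 there were 1354 genes, 10.9% of all, the share against which such counts on a list are to be read. In 50.1% of all genes the 2 S63del arrays lay entirely above or below the 2 WT arrays, as they did in all 298. A fit without any 1 of the 4 arrays, in which the lone array of a group is assumed to vary like the others, gave between 119 calls (without S63del replicate 2) and 149 (without S63del replicate 1), with 131 without WT replicate 1 and 136 without WT replicate 2. Of the 298 genes, 93 were called in each of these 4 fits, 40 higher and 53 lower. The residual SD of the P5 groups was between 0.12 and 0.16, against 0.39 in Chop null at P28, and a fit of the 8 P5 arrays alone called 901 genes.

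Markers of the cell types that nerve can hold were read in each array, and are compared between arrays and not between types. Over 7 Schwann cell markers the mean log2 level was 12.03 and 12.02 in WT and 11.66 and 11.59 in S63del. Of these markers 2 fell, Mbp and S100b (-1.07 ± 0.12), beside 2.40% of all genes called, and the median difference of the 7 was -0.25. The 6 markers of fibroblasts and perineurium had means of 12.09 and 12.09 in WT and 11.81 and 11.76 in S63del. For 6 markers of endothelium and pericytes they were 8.28 and 8.36 in WT and 7.98 and 7.84 in S63del, lower in both mutant arrays. The 2 measured erythroid markers were lower in both mutant arrays as well, at 9.03 and 8.78 in WT and 7.86 and 8.36 in S63del, and neither passed the test. The 2 adipocyte markers gave 10.71 and 11.25 in WT and 10.86 and 10.58 in S63del, which overlapped. The 5 skeletal muscle markers differed between the WT arrays themselves, at 8.65 and 10.73, with S63del between them at 8.82 and 9.44. The 6 macrophage markers gave 9.18 and 9.03 in WT and 9.22 and 9.19 in S63del. Of 4 measured sex-linked genes none passed in limma. Among them Xist differed by -0.22 ± 0.48, and by 0.74 without WT replicate 1. A 5' probe set for 18S ribosomal RNA read 13.42 in S63del replicate 1 and 7.89 in replicate 2, against 7.82 and 9.40 in WT. In whole nerve, fewer cells of a type and less RNA per cell cannot be told apart, and the part of these values in the results was not tested.

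The largest rises were in cytosolic heat shock genes, which hold unfolded proteins in solution or refold them. Hspa1a, the stress-inducible HSP70, read 5.96 and 5.93 in the WT arrays and 11.21 and 11.10 in the S63del arrays. The groups lay far apart, a rise of 5.21 ± 0.30 or 37.1-fold (limma, adjusted p = 1.23e-08). Hspa1b, its near-identical neighbour whose signal may be shared with it, read 8.43 and 8.39 in WT and 11.98 and 11.94 in S63del, a rise of 3.55 ± 0.29. Hspb1, a small heat shock protein, went from 9.12 and 9.28 to 12.79 and 12.58, a rise of 3.48 ± 0.16 or 11.2-fold (limma, adjusted p = 1.5e-09), and its second probe set rose by 3.76. Hspd1, the mitochondrial chaperonin, rose from 11.27 and 11.25 to 12.12 and 12.03 (0.81 ± 0.12). Hspb8, a partner in selective autophagy, rose by 1.75 ± 0.29, but its adjusted p was 0.0503 without WT replicate 1. Of 37 measured heat shock proteins and co-chaperones, 11 rose, by 0.46 to 5.21, and Hspa1l fell by 0.51, a call made in none of the fits without 1 array. The list's median was 0.24, beside -0.02 over all genes, and 6 or 7 members rose with any 1 array left out.

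The proteasome, which degrades ubiquitin-tagged proteins, had smaller differences, nearly all of 1 sign. Of 40 measured subunits 38 lay above 0, with a median of 0.41, and 10 rose by 0.41 to 0.86 while none fell (limma; 30 of the 40 had an unadjusted p under 0.05, against 10.9% of all genes). Psmd11, a subunit of the regulatory lid, read 10.98 and 11.08 in WT and 11.69 and 11.65 in S63del, a rise of 0.64 ± 0.10 (limma, adjusted p = 0.000842). Psmb3, a subunit of the catalytic core, rose by 0.86 ± 0.15, with an adjusted p = 0.0747 without WT replicate 2 and 0.0616 without S63del replicate 2. Between 1 and 4 subunits rose with 1 array left out, and 24 in the fit of the P5 arrays alone. The mean level of the subunits was 10.42 and 10.36 in WT and 10.74 and 10.79 in S63del, so the groups did not overlap.

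**Figure D1:**
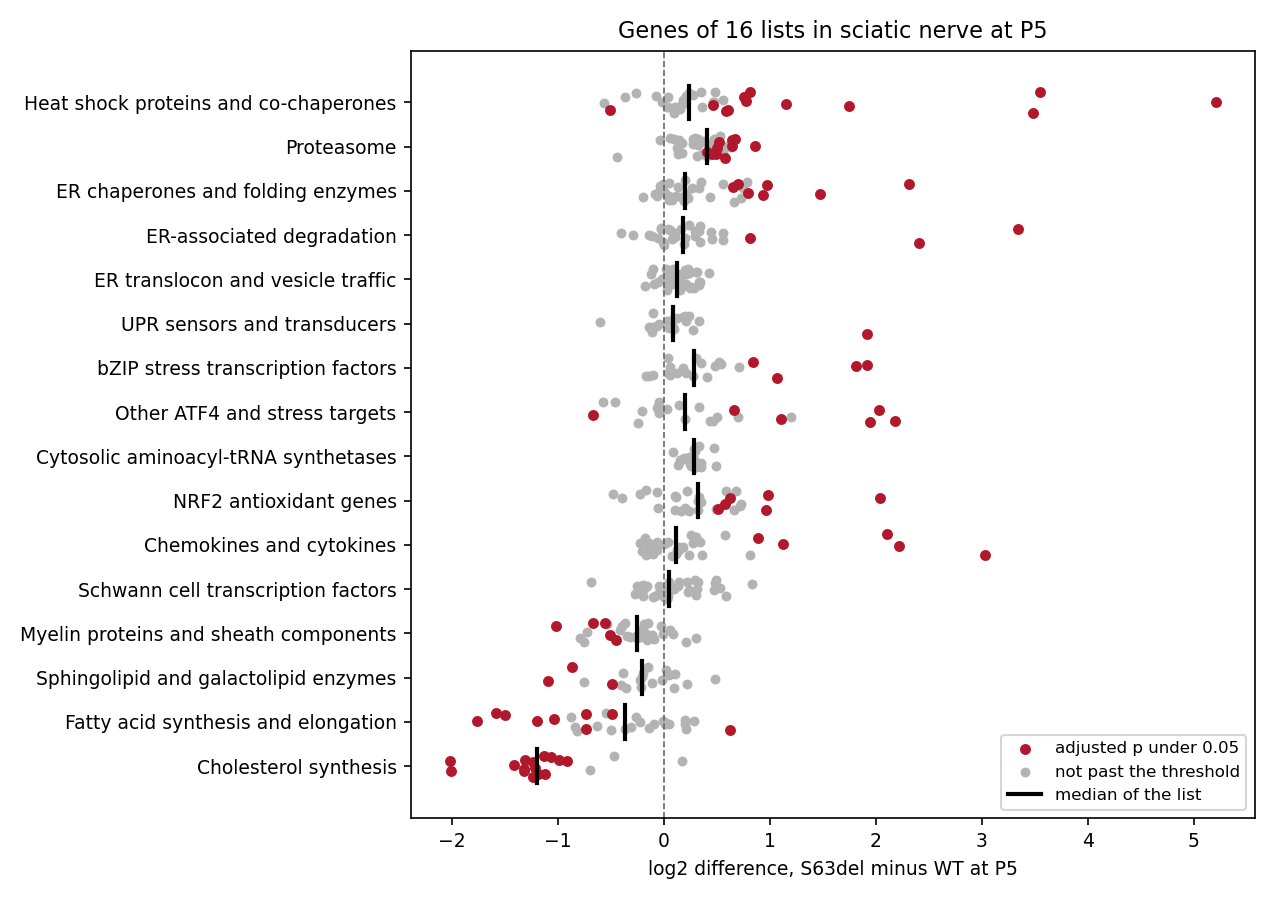
Log2 differences (x axis, S63del minus WT at P5) of the genes of 16 lists (y axis), each point a gene, red where the adjusted p was under 0.05 and grey otherwise, with a black bar at the list's median. Proteasome subunits cluster around a median of 0.41, heat shock genes have a median of 0.24 with Hspa1a at 5.21, and cholesterol synthesis lies around a median of -1.20.

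In the ER, the rises were uneven between genes of the same process. Sdf2l1, a cofactor of the main ER chaperone, read 7.13 and 6.97 in WT and 9.38 and 9.33 in S63del, a rise of 2.31 ± 0.20 (4.96-fold; limma, adjusted p = 3.2e-06). Creld2, an ER-resident stress protein, went from 9.44 and 9.12 to 10.71 and 10.80 (1.47 ± 0.22). Hspa5, the chaperone BiP itself, read 12.54 and 12.43 in WT and 13.29 and 13.25 in S63del. Its arrays did not overlap, as in 50.1% of all genes, and its difference of 0.79 ± 0.21 had an adjusted p = 0.069 in limma. Over the mean of its probe sets the difference was 0.82, with an adjusted p = 0.0405 in limma. Pdia4, a disulphide isomerase, rose by 0.97 ± 0.12, but by 0.47 (adjusted p = 0.07) over the mean of its probe sets, of which the dimmer read 4.61 on average and differed by -0.03. Hsp90b1, the ER form of HSP90, rose by 0.70 ± 0.13, with an adjusted p = 0.06 without WT replicate 1, 0.0612 without S63del replicate 2 and 0.0709 over the mean of its probe sets. Of 36 measured ER chaperones and folding enzymes 7 rose, by 0.65 to 2.31, and none fell, with a median of 0.20; 3 to 5 rose with 1 array left out.

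Among genes for the removal of ER proteins, few passed the threshold. Of 30 measured, 21 lay above 0 and 11 had an unadjusted p under 0.05 in limma, against 10.9% of all genes. Fbxo2, which marks glycoproteins for the proteasome, read 4.81 and 4.19 in WT and 7.92 and 7.75 in S63del, a rise of 3.34 ± 0.18 or 10.1-fold (limma, adjusted p = 6.22e-09). Derl3, part of the channel that exports misfolded proteins, rose from 6.25 and 6.40 to 8.93 and 8.55 (2.41 ± 0.24), and Herpud1, a scaffold of the same machinery, from 8.97 and 9.02 to 9.87 and 9.74 (0.81 ± 0.12). These were the 3 that rose of 30 measured genes of ER-associated degradation, and all 3 did so with any 1 array left out; the list's median was 0.18. Of 42 genes of the translocon and of vesicle traffic, which carry new proteins into and out of the ER, none passed in limma, and the median was 0.13.

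The sensors and transducers of the UPR mostly stayed below the threshold as transcripts. Of 21 measured, Ddit3 alone passed: it read 7.66 and 7.61 in WT and 9.59 and 9.52 in S63del, a rise of 1.92 ± 0.19 (limma, adjusted p = 1.5e-05). Atf4 differed by 0.12 ± 0.12, Xbp1 by -0.14 ± 0.13 and Ppp1r15a, which encodes the phosphatase subunit GADD34, by 0.08 ± 0.18, with adjusted p of 0.869, 0.855 and 0.979. ATF4 is controlled by translation and XBP1 by splicing, which these values do not measure.

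Transcripts known as targets of ATF4 and related factors moved unevenly. Of 23 such targets outside amino acid metabolism 5 rose, by 0.66 to 2.18, and Ndrg1, a myelin-related stress gene, fell by 0.67, with a median of 0.20; its adjusted p in limma was 0.051 without S63del replicate 2 and 0.0509 over the mean of its probe sets. Of 22 amino acid transporters, Slc7a3 rose and Slc6a15 fell, with a median of 0.06. Asns, which makes asparagine, read 6.73 and 6.76 in WT and 9.40 and 9.37 in S63del, a rise of 2.64 ± 0.15 or 6.24-fold, and its other probe set rose by 3.12. Chac1, which breaks down glutathione, went from 4.90 and 4.75 to 6.80 and 6.74 (1.94 ± 0.17), and Trib3, a pseudokinase that restrains ATF4, from 5.93 and 5.82 to 6.94 and 7.02 (1.11 ± 0.18). Atf3, a stress transcription factor, rose from 7.45 and 7.25 to 9.24 and 9.08 (1.81 ± 0.20). Tnfrsf12a, the receptor of the cytokine TWEAK, rose by 2.03 ± 0.18, and Slc7a3, a carrier of basic amino acids, by 1.13 ± 0.17. Asns, Chac1, Trib3, Atf3, Tnfrsf12a and Slc7a3 were each called with any 1 of the 4 arrays left out. Of 21 cytosolic aminoacyl-tRNA synthetases, which charge tRNAs, none passed in limma, 9 had an unadjusted p under 0.05 (10.9% of all genes had) and all 21 lay above 0; their mean level was 9.32 and 9.27 in WT and 9.52 and 9.60 in S63del. Enzymes of amino acid synthesis and one-carbon metabolism had a median of 0.08 over 24 genes, with 1 rise, that of Asns, and 1 fall. Chdh, which oxidises choline, fell there from 7.44 and 7.41 to 5.66 and 5.39 (-1.90 ± 0.15).

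Promoters of these genes were searched for known response elements, to show which letters lie there. RefSeq sequence of mouse assembly GRCm38.p6 was used for the 250 bases before each gene's start, on both strands; 9887 of the 12393 genes had an entry. The ER stress response element, CCAAT followed by CCACG after 9 other bases, was in 0.122% of 27025 promoters, in 0.162% of those of the tested genes, in 8 of 32 ER chaperone promoters, in 2.73% of 110 genes that rose and in none of 114 that fell. The following stretches hold it, and the capitals mark it:
Hspa5 (chr2:34771989-34772079, plus strand): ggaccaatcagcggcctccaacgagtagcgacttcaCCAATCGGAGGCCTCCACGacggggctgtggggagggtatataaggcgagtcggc
Creld2 (chr15:88819484-88819574, plus strand): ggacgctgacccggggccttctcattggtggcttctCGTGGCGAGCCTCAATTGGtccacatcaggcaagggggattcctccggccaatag
Derl3 (chr10:75893206-75893296, plus strand): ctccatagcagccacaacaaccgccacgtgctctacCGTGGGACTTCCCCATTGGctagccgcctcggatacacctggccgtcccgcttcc
Hsp90b1 (chr10:86705497-86705587, minus strand): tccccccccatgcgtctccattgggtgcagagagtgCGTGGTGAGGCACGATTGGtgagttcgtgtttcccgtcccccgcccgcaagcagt
Of these genes, Creld2, Derl3 and Hsp90b1 rose. Hspa5 had an adjusted p = 0.069 in limma, and 0.0405 over the mean of its probe sets. Hsp90b1 had 0.0709 over the mean of its own. Hsp90b1 held 2 matches, and the stretch shown lies around 1 of them.

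The C/EBP-ATF element, spelled TGATGNAAN, was in 3.52% of all promoters and 2.37% of those tested. It was in 4.55% of the promoters of genes that rose and 1.75% of those that fell, in 4 of 18 promoters of the other ATF4 and stress targets and in 3 of 14 of the tRNA synthetases. Those of genes that rose are shown, with the element in capitals:
Asns (chr6:7693210-7693268, minus strand): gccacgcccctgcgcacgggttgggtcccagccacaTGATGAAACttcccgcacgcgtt
Chac1 (chr2:119351012-119351092, plus strand): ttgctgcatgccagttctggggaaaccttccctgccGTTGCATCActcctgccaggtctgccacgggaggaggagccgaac
Atf3 (chr1:191183400-191183480, minus strand): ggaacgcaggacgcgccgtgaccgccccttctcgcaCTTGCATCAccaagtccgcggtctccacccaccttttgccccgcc
Tubb3 (chr8:123411454-123411534, plus strand): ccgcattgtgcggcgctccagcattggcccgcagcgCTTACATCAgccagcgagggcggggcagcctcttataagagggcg
Herpud1 (chr8:94386280-94386360, plus strand): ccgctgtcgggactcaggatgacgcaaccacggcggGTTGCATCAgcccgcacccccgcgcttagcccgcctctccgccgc
Ddit3 and Car6 held no match in this window. Among the genes that fell, Idi1 and Serpinf1 held a match; Serpinf1 had an adjusted p = 0.304 in limma without S63del replicate 2.

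The heat shock element of 3 units, GAANNTTC followed by GAA after 2 other bases, was in 0.403% of all promoters, in 0.314% of those tested, in 1.82% of those of genes that rose and 0.877% of those that fell. It was in 2 of 31 promoters of heat shock genes, and Hspa1a, Hspb1 and Hsph1 held none. The matches among genes that rose were in Hspe1, the partner of the chaperonin Hspd1, where overlapping matches merge, and in Uchl1, shown with capitals on the element:
Hspe1 (chr1:55088023-55088112, plus strand): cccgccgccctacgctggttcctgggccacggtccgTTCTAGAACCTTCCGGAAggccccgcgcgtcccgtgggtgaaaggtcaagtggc
Uchl1 (chr5:66675918-66676002, plus strand): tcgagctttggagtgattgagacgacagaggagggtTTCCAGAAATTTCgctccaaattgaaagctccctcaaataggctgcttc
After this result had been seen, a looser form of 2 facing units (GAANNTTC or TTCNNGAA) was searched as well. It was in 13% of all promoters, 11% of those tested, 17.3% of those of genes that rose, 12.3% of those that fell and 10 of 31 heat shock promoters. Hspa1a, Hspb1 and Hsph1, which lacked the form of 3 units, held this looser one, which was in 5 of 11 promoters of called heat shock genes. The antioxidant response element, TGAC followed by GCA after 3 other bases, was in 2.39% of all promoters, 4.55% of those of genes that rose and 0.877% of those that fell, but in none of 24 promoters of NRF2 genes. A match is a run of letters and not a measured binding site, and the absence of a match says only that these letters are not in the window.

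Oxidative stress genes under the factor NRF2 rose in part. Srxn1, which repairs oxidised peroxiredoxins, read 7.97 and 7.69 in WT and 9.98 and 9.75 in S63del (2.04 ± 0.27; limma, adjusted p = 0.000213). Blvrb, a biliverdin reductase, rose by 0.99 ± 0.13. Sqstm1, the autophagy receptor p62, rose by 0.96 ± 0.17, with an adjusted p = 0.0669 without S63del replicate 1. In all 6 of 29 genes rose and none fell, with a median of 0.33, and 2 to 4 rose with 1 array left out.

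Lipid synthesis, the other large theme among the lists, moved down. Of 18 measured genes of cholesterol synthesis 15 fell, by 0.91 to 2.02, and none rose; the median was -1.20, and 11 or 12 fell with any 1 array left out. Hmgcs1, the enzyme that starts the pathway, read 13.62 and 13.63 in WT and 12.55 and 12.46 in S63del (-1.12 ± 0.12; limma, adjusted p = 3.48e-05), and its other 3 probe sets fell too. Idi1, which makes the building block dimethylallyl diphosphate, went from 12.35 and 12.39 to 10.94 and 10.97 (-1.41 ± 0.19). Lss, which closes the sterol rings, went from 10.10 and 10.23 to 8.28 and 8.02 (-2.02 ± 0.28), and Tm7sf2, a later sterol reductase, from 10.27 and 10.15 to 8.22 and 8.19 (-2.01 ± 0.20). Dhcr7, which makes cholesterol in the last step, fell by 1.23 ± 0.13. The groups did not overlap in any of these, which holds for all 298 called genes and for 50.1% of all genes. Srebf2 and Srebf1, which encode the factors that drive the pathway, differed by -0.44 ± 0.18 and -0.13 ± 0.15 and did not pass (adjusted p = 0.341 and 0.921).

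The sterol regulatory element, spelled TCACNCCAC, was in 1.03% of all promoters and in 1 of 15 promoters of cholesterol genes, that of Hmgcs1, shown with the element in capitals:
Hmgcs1 (chr13:119690178-119690258, plus strand): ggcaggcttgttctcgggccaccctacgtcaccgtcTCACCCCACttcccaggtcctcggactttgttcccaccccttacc
It was in 1.75% of the promoters of genes that fell and 0.909% of those that rose.

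Fatty acid genes fell as well, 8 of 29 with a median of -0.37, while Me1, which supplies NADPH, rose by 0.63 ± 0.16 and was called in none of the fits without 1 array; 2 to 6 fell with 1 array left out. Elovl6, which lengthens saturated fatty acids, went from 11.996 and 11.907 to 10.471 and 10.426 (-1.503 ± 0.173; limma, adjusted p = 5.69e-05), and Elovl7 from 11.08 and 11.03 to 10.02 and 10.02 (-1.04 ± 0.15). Scd1, which desaturates fatty acids, read 11.78 and 11.99 in WT and 11.10 and 10.28 in S63del (-1.20 ± 0.20), and was -0.78 with an adjusted p = 0.055 without S63del replicate 2. Among 20 genes of sphingolipids and galactolipids 3 fell. Fa2h, which hydroxylates the fatty acids of myelin lipids, went from 11.78 and 11.72 to 10.75 and 10.57 (-1.09 ± 0.14), and Ugt8a, which makes galactocerebroside, from 12.96 and 13.01 to 12.18 and 12.06 (-0.86 ± 0.13).

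Myelin proteins had smaller differences, and their median is given without a test against the lipid lists. Of 31 measured, 27 lay below 0 with a median of -0.25, 5 fell and none rose, and 2 to 4 fell with 1 array left out. Ncmap, a myelin membrane protein, went from 12.10 and 12.01 to 11.12 and 10.95 (-1.02 ± 0.13; limma, adjusted p = 0.000196), and Cd9, a tetraspanin, from 13.42 and 13.45 to 12.89 and 12.87 (-0.55 ± 0.09). Mbp, the basic protein of compact myelin, read 14.14 and 14.17 in WT and 13.75 and 13.66 in S63del (-0.45 ± 0.09). Its adjusted p was 0.0757 and 0.11 without WT replicate 1 or 2, 0.16 without S63del replicate 2 and 0.179 over the mean of its probe sets. Mag, an adhesion protein of the inner myelin wrap, differed by -0.72 ± 0.23 (adjusted p = 0.142) and Pmp22, a compact myelin protein, by -0.23 ± 0.09 (adjusted p = 0.275).

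The transcription factors of Schwann cells stayed below the threshold, 0 of 36 in limma with a median of 0.04. At an unadjusted p under 0.05 there were 4 of the 36, a share near the 10.9% of all genes. Egr2, the main driver of myelination, read 11.56 and 11.55 in WT and 11.55 and 11.55 in S63del. Sox10, which sets Schwann cell identity, differed by -0.25 ± 0.17. Jun, Sox2 and Id2, which mark immature or injured Schwann cells, differed by 0.53 ± 0.20, 0.58 ± 0.38 and 0.48 ± 0.24. Pou3f1, another Schwann cell factor, differed by 0.32 ± 0.35. Among the 28 measured genes that mark immature or repair cells, 2 rose. Uchl1, a deubiquitinase, read 7.83 and 7.70 in WT and 10.54 and 10.40 in S63del (2.70 ± 0.30), and Gdnf, a neurotrophic factor, 4.27 and 3.75 against 5.98 and 5.30 (1.63 ± 0.24). Ccn3 fell by 0.49 ± 0.12 in the same list, with an adjusted p = 0.4 without S63del replicate 2, and passed in none of the 4 fits without 1 array.

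**Figure D2:**
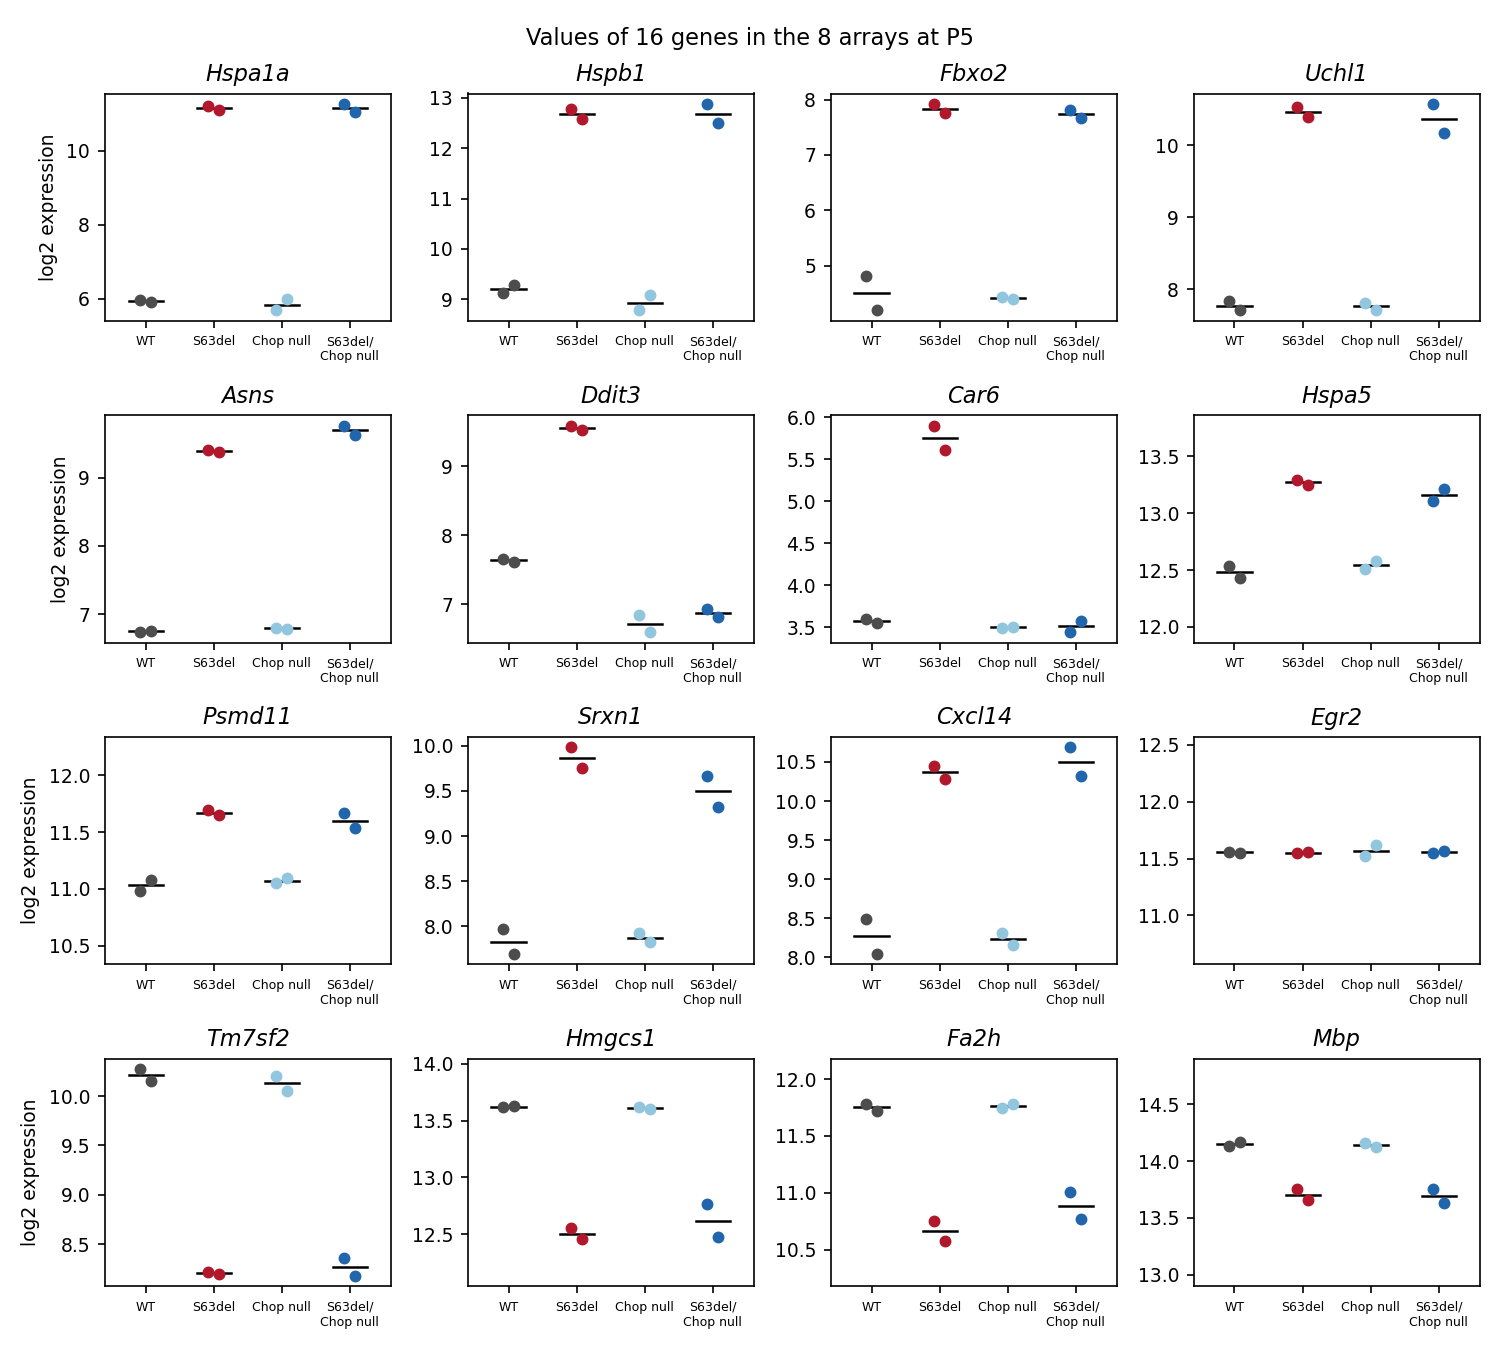
Log2 expression (y axis, scaled for each gene) of 16 genes in the 8 arrays at P5, grouped by genotype (x axis), each point an array and each bar the mean of 2. Hspa1a stands near 11 in both genotypes with S63del and near 6 in the others, Ddit3 and Car6 are high in S63del alone, and Egr2 lies near 11.5 in all 8 arrays.

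Secreted and surface proteins added large changes of single genes. Cxcl14, a chemokine, read 8.49 and 8.04 in WT and 10.45 and 10.29 in S63del (2.10 ± 0.30; limma, adjusted p = 0.000565). Ccl8 rose by 2.22 ± 0.37, with an adjusted p = 0.0517 without S63del replicate 1. Cxcl10, a chemokine induced by interferon, rose by 3.03 ± 0.61 and passed in none of the fits without 1 array, where its adjusted p was 0.06 to 0.109. None of 29 interferon-stimulated genes passed in limma, with a median of 0.09. Lgals3, a lectin of macrophages and of reactive Schwann cells, rose by 2.66 ± 0.27, while the 32 macrophage genes had a median of 0.02 and 2 rises. H2-DMa, which loads peptides on MHC class II, fell from 8.74 and 8.72 to 7.36 and 6.86 (-1.62 ± 0.19).

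Tubb3, a tubulin best known in neurons, read 5.10 and 4.55 in WT and 7.37 and 6.77 in S63del (2.25 ± 0.21; limma, adjusted p = 5.23e-06). The 4 neuronal markers were low, with means of 5.13 and 4.99 in WT and 4.92 and 5.03 in S63del. Of 25 axonal and neuronal genes, 3 rose (Tubb3, Uchl1 and Eno2), Nsg2 fell, 12 lay above 0 and 13 below, and the median was -0.02, or 0.01 under quantile normalization. Nsg2, a neuronal vesicle protein, fell from 8.17 and 7.91 to 6.77 and 5.84 (-1.73 ± 0.23). Sema5a, an axon guidance molecule, fell from 8.68 and 8.66 to 7.02 and 6.67 (-1.83 ± 0.17). The potassium channel gene Kcnk1 fell from 10.81 and 10.79 to 9.34 and 9.16 (-1.56 ± 0.15), and the sodium channel subunit gene Scn3b from 9.27 and 9.31 to 7.68 and 7.57 (-1.66 ± 0.20). Chst2, a sulfotransferase, had the largest fall of all, from 8.30 and 8.05 to 6.28 and 5.92 (-2.08 ± 0.17).

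Immediate early genes, which respond fast to stimuli, rose in 5 of 29 cases with a median of 0.27. Ccn1, a secreted matrix protein, read 7.83 and 7.87 in WT and 9.41 and 9.04 in S63del (1.37 ± 0.16; limma, adjusted p = 8.518e-05), and Ier3, a stress-induced survival gene, rose by 1.19 ± 0.14. Fos, a subunit of AP-1, rose by 1.09 ± 0.21, with an adjusted p = 0.0868 without WT replicate 1 and 0.131 without S63del replicate 1. Apod, a lipid carrier made by Schwann cells and fibroblasts, rose from 11.61 and 11.31 to 12.60 and 12.21 (0.95 ± 0.14), against the direction of the lipid enzymes. Mocos, which activates molybdenum enzymes, rose by 1.92 ± 0.20.

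Further large falls came from genes of varied roles. Slc6a15, a neutral amino acid carrier, went from 7.65 and 7.54 to 5.51 and 5.72 (-1.98 ± 0.26; limma, adjusted p = 0.000207), and Cd24a, a surface glycoprotein, from 11.32 and 11.26 to 9.77 and 9.78 (-1.51 ± 0.25). Esrp1, a splicing regulator, went from 5.95 and 5.87 to 4.49 and 4.51 (-1.41 ± 0.16). Cadm3, an adhesion molecule of the axon and Schwann cell contact, fell by 0.87 ± 0.13. Ogn, a matrix proteoglycan of fibroblasts, fell by 0.78 ± 0.13, beside the lower fibroblast markers given above, whose part was not tested. Fgf1, a growth factor, fell by 1.01 ± 0.20, with an adjusted p = 0.106 without WT replicate 1, 0.092 without S63del replicate 1 and 0.0622 without S63del replicate 2.

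Of the 298 genes, 132 stood on a list and 166 on none, 64 of those higher and 102 lower. Cell cycle genes had a median of 0.33 over 43 genes with none past the threshold in limma and 11 at an unadjusted p under 0.05, beside 10.9% of all genes; their mean level was 8.84 and 8.74 in WT and 8.95 and 9.18 in S63del. Endothelium and pericyte genes had a median of -0.33, 24 of 25 below 0, and Vwf, the von Willebrand factor of endothelium, fell by 0.76 with an adjusted p = 0.0209 in limma, which was 0.111 and 0.185 without WT replicate 1 or 2 and 0.439 without S63del replicate 2. Collagens had a median of -0.26 over 29 genes and fibroblast and perineurium genes of -0.25 over 30.

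The comparison of S63del/Chop null with Chop null at P5 asks whether the same mutant allele acts alike where Chop is missing, and it shares no array with the comparison above. It called 221 genes, 1.78% of all, and 187 genes were called in both, 62.8% of the first list and 84.6% of the second. None of the 187 differed in direction. Of the 298 genes 297 had the same sign without Chop, as had 69.9% of all genes, and the exception was Hspa1l. Heat shock genes rose in 10 of 37 cases, proteasome subunits in 9 of 40, ER chaperones in 6 of 36, and cholesterol genes fell in 14 of 18. Both comparisons share the estimate of the spread.

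Hspa1a read 5.69 and 5.99 in Chop null and 11.27 and 11.05 in S63del/Chop null, a rise of 5.32 ± 0.30 where Chop was missing. Asns rose by 2.90 ± 0.15 and Chac1 by 2.81 ± 0.17. Ddit3 and Car6, a secreted carbonic anhydrase, were picked after their values were seen. They had the smallest p-values in the limma test of the difference between both effects, given below. Myh3, a muscle gene, had a difference of -1.95 ± 0.66, larger in size than that of Ddit3. Ddit3, the deleted gene, read 6.85 and 6.60 in Chop null and 6.93 and 6.82 in S63del/Chop null. Car6 read 3.60 and 3.55 in WT, 5.90 and 5.61 in S63del, 3.49 and 3.51 in Chop null and 3.44 and 3.58 in S63del/Chop null, so both S63del arrays lay above the other 6. The test of the difference between both effects, which shares the arrays of both, called 0 of 12393 genes in limma (0.00%), with 107 at an unadjusted p under 0.05. The difference was -1.76 ± 0.27 for Ddit3 (adjusted p = 0.0846) and -2.17 ± 0.38 for Car6 (adjusted p = 0.196). In the fit of the 8 P5 arrays alone the adjusted p in limma was 0.00493 for Ddit3 and 0.00323 for Car6. With a block for the replicate number it was 0.165 for Ddit3 and 0.602 for Car6, so the call depends on the fit. With 1 P5 array left out the difference was -1.64 to -1.89 for Ddit3 and -2.02 to -2.31 for Car6.

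**Figure D3:**
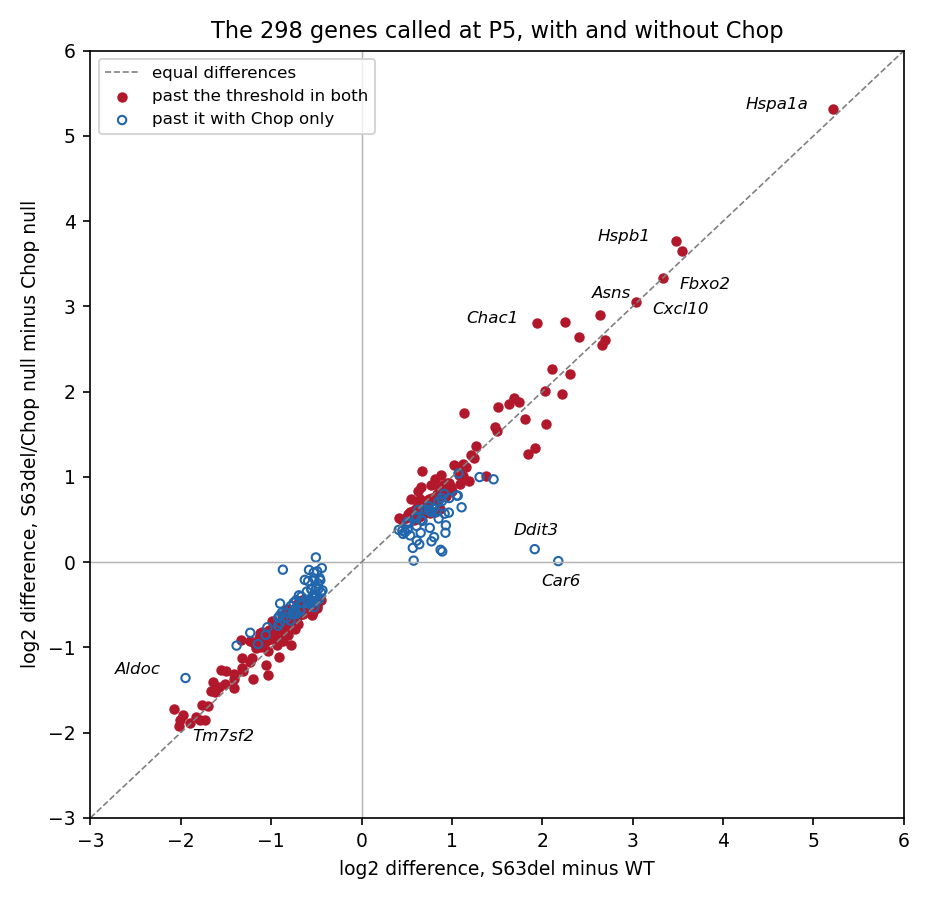
Log2 differences of the 298 genes at P5, S63del minus WT (x axis) against S63del/Chop null minus Chop null (y axis), filled where both passed the threshold (187 genes), open where the first alone did, with a dashed line of equal differences. The genes were chosen by the first difference, and the median ratio of the second to the first was 0.88. Ddit3 (1.92 against 0.15) and Car6 (2.18 against 0.01) are among the points below the line.

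Whether the effect seen at P5 held at later ages was tested as the difference between the effects, which share the P5 arrays. At P28 the 5' probe set for 18S ribosomal RNA read 8.88 and 8.24 in WT and 4.23 and 5.06 in S63del. The part of this difference in the P28 effects was not tested. The effect at P28 minus that at P5 was called for 59 genes, 0.476% of all. Of these, 28 were among the 298, 11 rises and 17 falls, and in all 28 the P28 effect was nearer 0 or opposite. The rest of the 59 were not called at P5, and the direction of their change is not given here. At 4 months the 5' control probe set for Gapdh read 9.83 and 12.40 in WT, against 11.95 and 12.49 for its 3' probe set. In S63del the 5' one read 11.003 and 11.279, against 12.322 and 12.330 for the 3' one. At P5 the 5' one read above the 3' one in each WT and S63del array. The part of these values in the 4-month effects was not tested. The effect at 4 months minus that at P5 was called for 35 genes (0.282%), all among the 298, 17 rises and 18 falls, and again each was nearer 0 or opposite. Genes chosen for a large P5 effect tend to show a smaller one in other arrays, so these shared directions are a description. The median size over the 298 was 0.83 at P5, 0.44 at P28 and 0.20 at 4 months.

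Hspa1a differed by 5.21 at P5, 2.81 at P28 and 0.42 at 4 months, and Hspb1 by 3.48, 1.12 and -0.05. For Hspb1 the change of the effect was -2.37 ± 0.23 at P28 (limma, adjusted p = 0.000136) and -3.53 ± 0.23 at 4 months (adjusted p = 3.08e-07). Asns differed by 2.64, 0.77 and 0.14, and Fbxo2 by 3.34, 1.13 and -0.12. Car6 was back at -0.14 at P28, a change of -2.32 ± 0.38 (adjusted p = 0.00784). Among the falls, Kcnk1 differed by -1.56 at P5 and 0.18 at P28, and Chst2 by -2.08, -0.46 and 0.25. Other genes had similar values at P5 and P28: Creld2 differed by 1.47 and 1.54, Uchl1 by 2.70 and 2.20, and Lss by -2.02 and -1.57. Proteasome subunits had a median of 0.41 at P5, 0.39 at P28 and 0.06 at 4 months, and cholesterol genes of -1.20, -0.50 and -0.32.

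**Figure D4:**
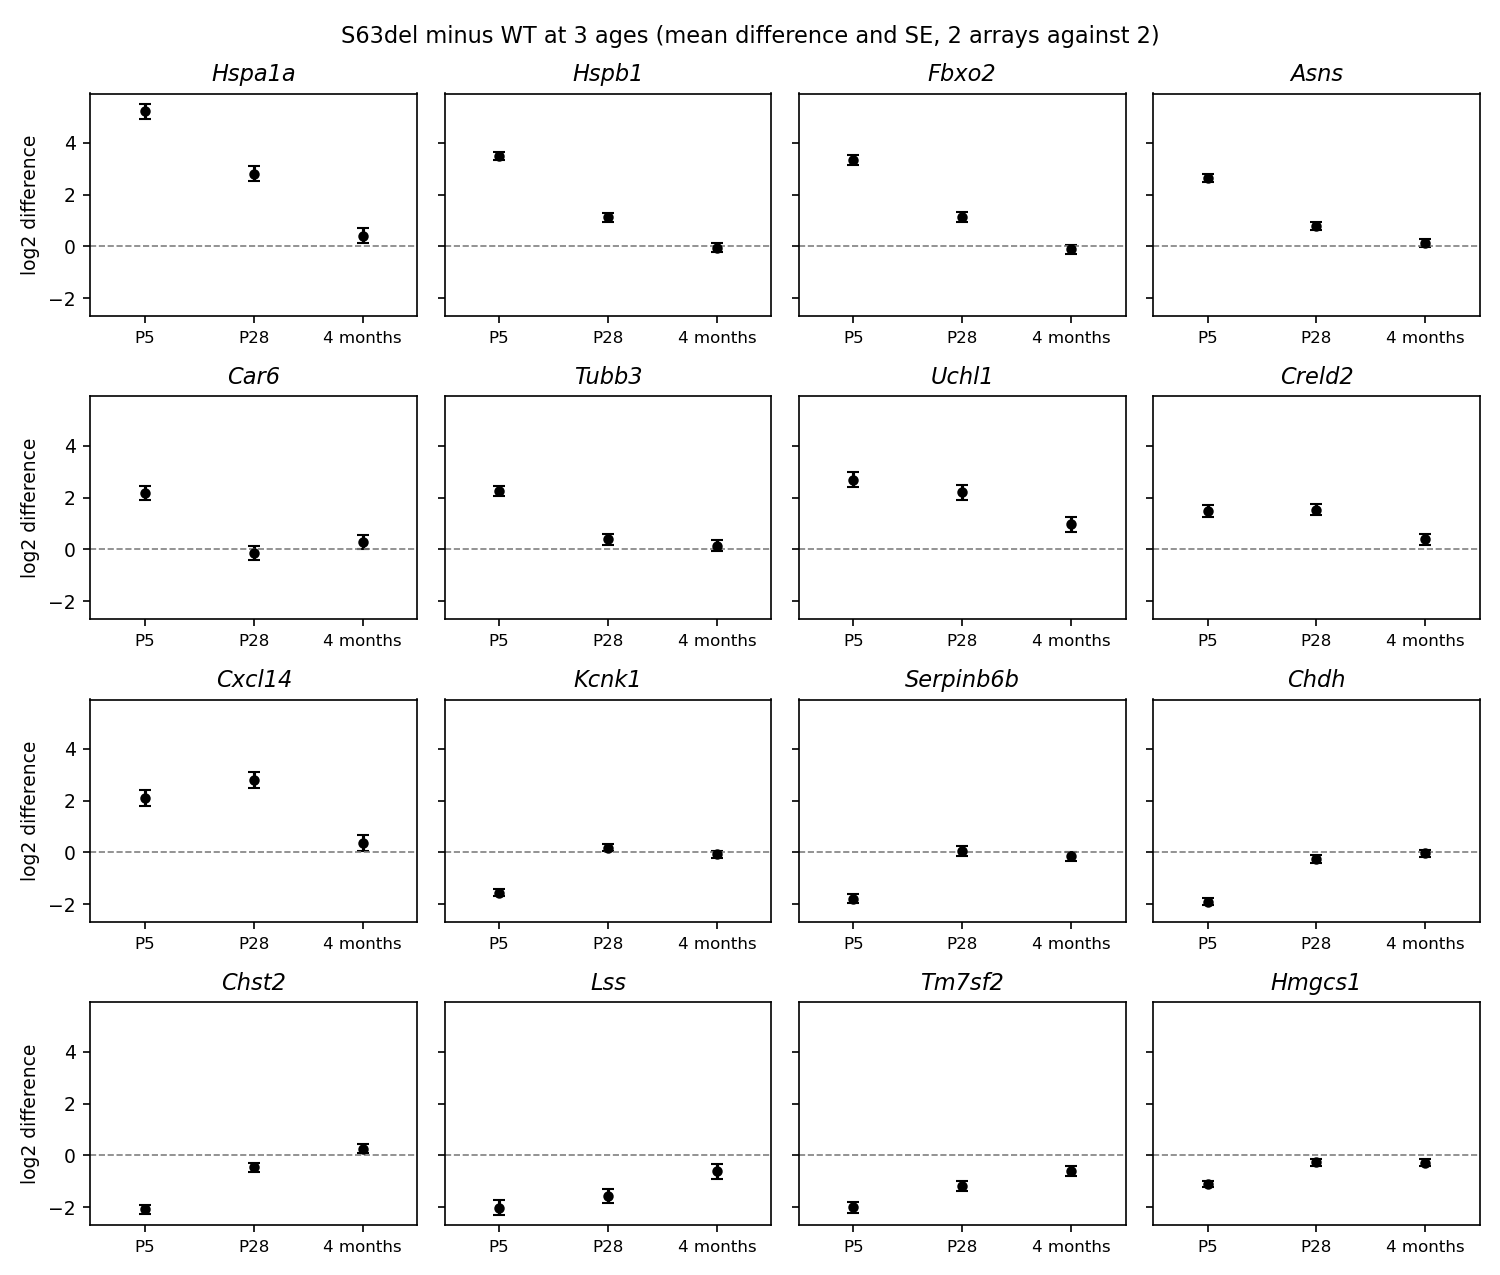
Log2 difference, S63del minus WT, of 16 genes (y axis, 1 scale for all) at P5, P28 and 4 months (x axis), points being differences of means of 2 arrays against 2 and bars the SE from limma. Hspb1 goes from 3.48 to 1.12 and -0.05, while Creld2 stays at 1.47 and 1.54 up to P28.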

How the data were processed

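Sciatic nerve RNA was hybridised to 24 arrays, 4 of which carry the main comparison. The authors deposited log2 expression values for 22690 probe sets per array, with the unit read from the values; for normalization and software, "not given in the sources used here" applies. Of the probe sets, 64 are controls, 20380 have 1 gene symbol in the platform annotation, 691 several and 1555 none. Each gene was represented by its probe set with the highest mean, for 12393 genes. The number of arrays limits the precision. No 2 arrays were identical.

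A model with 1 mean per group, over all 24 arrays, was fitted in limma 3.58.1 in R 4.3.3 (lmFit and eBayes, 12 residual degrees of freedom) in 5 contrasts, and p-values were adjusted over all genes (Benjamini-Hochberg, threshold 0.05). The fit was also run on simulated data with the same noise SD in all groups for each gene. In the arrays the residual SD of a group was between 0.12 and 0.39, so those runs do not test unequal spread. Alternatives were quantile normalization, the mean of a gene's probe sets or each on its own, dim genes left out (under the 40th percentile), array weights, robust estimation with an intensity trend, a block for the replicate number, other sets of arrays, and each array left out.

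The members, the 47 lists (1475 genes, 1305 measured), the naming rule and the promoter motifs were chosen with earlier results of these data known. The rule names the 20 largest rises and 20 largest falls, up to 5 members of each list by smallest p, and set genes of stress pathways and Schwann cells. Part of these are printed, and some further genes were named after their values were seen (Hspa1l, Me1, Hsph1, S100b). Of 6 motif forms searched, the looser heat shock form was added after the first 5 had been read. Some genes are not reported here.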

Additional observations from a re-analysis of the deposited data

Results flagged for a closer look

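These differences of the S63del effect between ages passed the test of the difference itself in limma, each with a Benjamini-Hochberg adjusted p under 0.05, and are printed as the later effect minus the P5 effect on the log2 scale. At P28 the rises of P5 were smaller for Hspa1a (-2.40), Hspb1 (-2.37), Car6 (-2.32), Fbxo2 (-2.20), Hspa1b (-2.12) and Asns (-1.87). At the same age the P5 falls of Chst2 (1.62), Chdh (1.63), Slc6a15 (1.85), Kcnk1 (1.74), Serpinb6b (1.85) and Emid1 (1.67) were smaller or had turned. At 4 months the rises were smaller for Hspa1a (-4.80), Hspb1 (-3.53), Fbxo2 (-3.46), Hspa1b (-3.33), Asns (-2.50) and Tubb3 (-2.11), and the falls for Sema5a (1.57), Serpinb6b (1.63), Vit (1.73), Nsg2 (1.84), Chdh (1.86) and Chst2 (2.33). All of these share the P5 arrays. The part of the Gapdh values given above in the 4-month differences was not tested.

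Probe sets with several gene symbols or none, which no comparison above uses, also held signal: 31 of 2246 were called between S63del and WT at P5 (1.38%), 12 higher and 19 lower, against 1.89% of the 20380 with 1 symbol.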

How the results depend on the processing

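Counts of calls moved with the arrays that share the spread. Changes of sign were read for the named genes only. Of 189 other probe sets of the called genes, 181 had the direction of the probe set used. Of the named genes 7 changed sign under some alternative, none of them called; Car3, for example, was -0.21 and 0.07 without S63del replicate 2. S63del against WT at P5 called 298 genes, and 334, 316, 312, 330 and 350 under quantile normalization, the mean of probe sets, each probe set on its own, dim genes left out and trend with robust estimation. It called 1033 with array weights, 572 without a pair of noisier arrays (WT 4-month replicate 1, Chop null P28 replicate 2), 901 with the P5 arrays alone, 564 without P28, and 119 to 149 with 1 array left out. In the same order S63del/Chop null against Chop null called 221, then 935 with array weights, 441 without those 2 arrays, 586 at P5 alone, 399 without P28, and 78 to 103 with 1 array left out.

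The P28 minus P5 effect was called for 59 genes, 134 with array weights, 213 without those 2 arrays and 17 to 45 with 1 array left out. The 4-month minus P5 effect was called for 35, then 77, 59 and 13 to 60, the last without WT 4-month replicate 2. The test of the Chop difference called 0 genes, 1 under quantile normalization (Car6), 1 with dim genes left out, 1 with trend and robust estimation (Ddit3 in both), 3 with array weights, 2 without those 2 arrays, 2 at P5 alone, 1 without P28, and 0 to 1 with 1 array left out.

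The deviations of same-numbered WT and S63del arrays at P5 from their group means had r = 0.02 over genes. Other pairs of P5 groups had r from -0.25 to 0.35. With 2 arrays a group, such values cannot decide whether the numbers pair samples. A replicate block called 244 genes in S63del against WT, 180 without Chop, 0 for the Chop difference, and 50 and 34 for the age differences. Of 245 named genes 113 were called, 58 of them under each alternative run. Arrays of 2 per group limit every value here, and signal over background was not given.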
